A study of Mus musculus with 14 samples.

Results

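The aldehyde dehydrogenase family was examined in activated mouse CD4+ T cells that lacked the histone deacetylase HDAC1, with or without the loss of 1 *Hdac2* allele. The family was represented by a list of 10 genes, *Aldh7a1*, *Aldh2*, *Aldh3a2*, *Aldh4a1*, *Aldh5a1*, *Aldh6a1*, *Aldh9a1*, *Aldh16a1*, *Aldh18a1*, and *Aldh1l2*, out of 43917 genes with a value in the first experiment and 33467 in the second. Members were identified by gene name, and 11 other family genes were not on the list and are described apart from it. The list was drawn up because *Aldh7a1* differed most between the experiments. *Aldh7a1* is therefore described without a test. The other genes on the list were tested within each experiment where they had a value, 7 in the first and 8 in the second. In the first experiment, 4 HDAC1cKO-HDAC2HET samples (HDAC1f/f HDAC2f/+ x CD4cre) were compared with 4 WT samples after 3 days of activation by anti-CD3 and anti-CD28 antibodies with IL-2. In the second, 3 HDAC1cKO samples (HDAC1f/f CD4-cre+) were compared with 3 WT samples after 3 days of activation followed by 12 hours of restimulation with anti-CD3. All mice were on the C57BL/6 background. By the study's methods they were of both sexes and in general 6 to 12 weeks old, and controls were littermates. The study cites earlier work for the HDAC1cKO comparison, to which these details may not apply. Cre was expressed under control of *Cd4* regulatory elements, which are active in T cells from the thymus onward. The experiments differed in genotype, restimulation, and libraries, which cannot be told apart in a comparison between them.

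Aldehyde dehydrogenases oxidize aldehydes to carboxylic acids with NAD or NADP as cofactor. Some clear toxic aldehydes from lipids or ethanol, and others catalyze a single step in the breakdown or synthesis of amino acids, GABA, carnitine, folates, or retinoic acid. Activated T cells depend on several of these routes as they grow, including proline synthesis and mitochondrial one-carbon metabolism.

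The targeted gene was low in both mutants. *Hdac1* measured 78.1 ± 1.44 FPKM (fragments counted per kilobase of transcript and scaled to library size, SD, n = 4) in WT and 8.30 ± 1.89 in HDAC1cKO-HDAC2HET cells, and 75.6 ± 4.78 (n = 3) against 10.1 ± 1.82 in the HDAC1cKO experiment. *Hdac2* measured 59.0 ± 1.04 against 35.4 ± 1.36 FPKM in the first experiment and 72.4 ± 8.65 against 80.4 ± 6.91 in the second. CD4+ T cell genes (*Cd4*, *Cd3e*, *Cd3d*, *Cd3g*, *Cd5*, *Lck*, and *Cd28*) summed to between 1112 and 1589 FPKM in every sample. Genes of B cells, NK cells, and erythroid cells summed to at most 1.12 FPKM per list, and myeloid genes reached 5.73, nearly all from *Cd68* in the second experiment, where *Lyz2* and *Ncr1* were at 0. *Csf1r* and *Klrb1c* had no value in either experiment, so the NK cell list rested on *Ncr1* alone, and *Cd68* had no value in the first. All 7 CD4+ T cell genes fell in HDAC1cKO-HDAC2HET cells, with sums of 1456 to 1589 in WT and 1112 to 1182 in mutant samples, and *Cd8a* and *Cd8b1* both rose, with sums of 3.28 to 5.96 FPKM in WT and 11.7 to 15.2 in mutant samples. Their part in the results for the aldehyde dehydrogenases was not tested. Library depth, estimated from the confidence bounds of low values, lay between 20400000 and 48300000 fragments per sample.

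Of the 10 genes, 8 had a value in the first experiment and 9 in the second. *Aldh4a1* (chr4:139622866-139649690, mm10, plus strand), which converts a product of proline breakdown to glutamate, had no value of its own in any sample. In every file it lay inside a merged locus from 139530548 to 139670280 that also spans *Iffo2*, *Gm21969*, and *Tas1r2*, and that locus measured between 8.68 and 13.4 FPKM. *Aldh1l2* (chr10:83487450-83534140, minus strand), the mitochondrial 10-formyltetrahydrofolate dehydrogenase, was listed at 0 in all 8 samples of the first experiment. A 0 at an assembled locus can be a failed estimate, so the gene was given no value there. The plot of FPKM by sample shows the 9 genes with a value in at least 1 experiment.

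**Figure D1:**
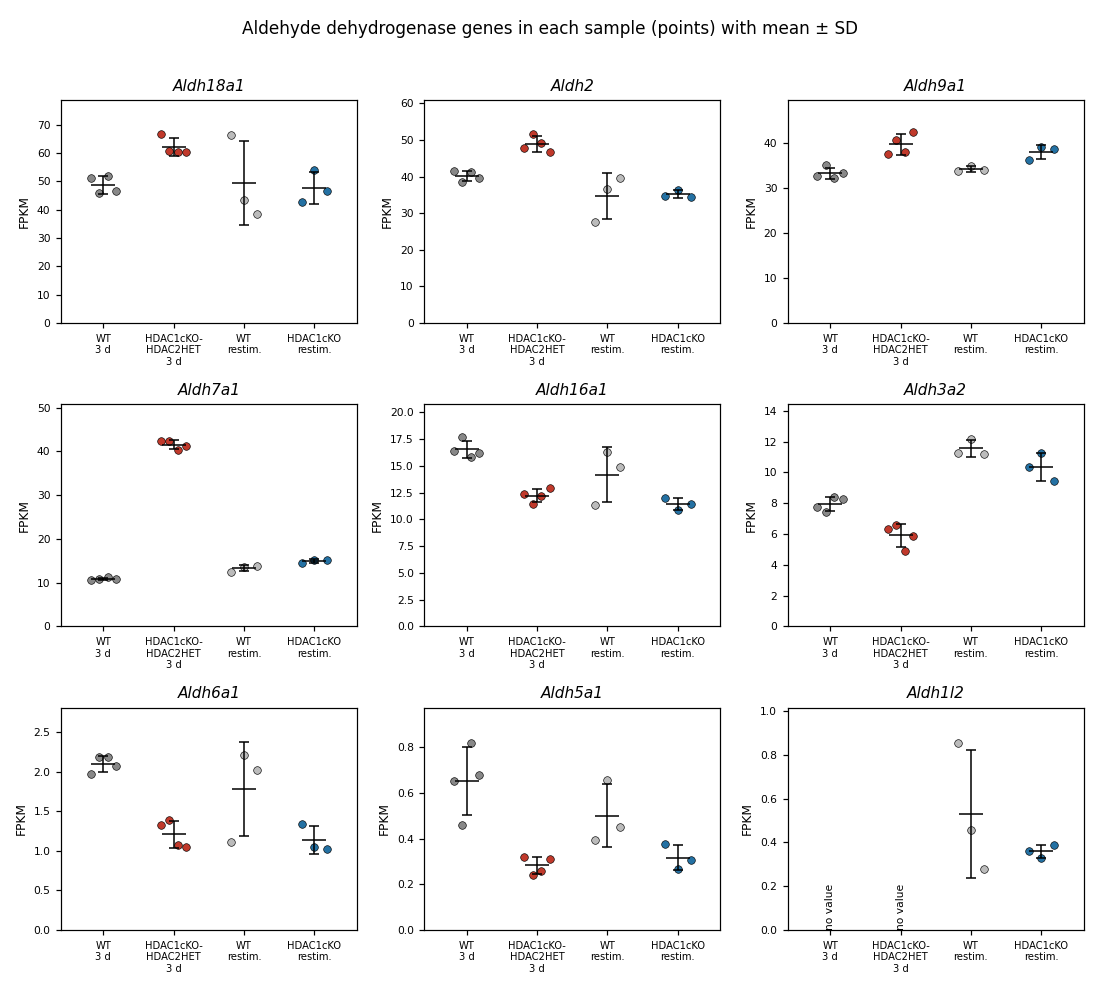
FPKM (y axis, linear, from 0) of 9 aldehyde dehydrogenase genes in each sample (points) of the 4 groups (x axis), with mean and SD (bars). In the first experiment the WT and HDAC1cKO-HDAC2HET points are apart for the 8 genes with a value, against 50.3% of all genes tested there. *Aldh7a1*, because of which the list was drawn up, is among the 8 and averages 10.9 and 41.6 FPKM.

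*Aldh7a1*, also known as antiquitin, acts in lysine breakdown and in the synthesis of the osmolyte betaine. WT samples measured 10.5, 10.9, 11.2, and 10.9 FPKM and HDAC1cKO-HDAC2HET samples 42.4, 42.3, 40.2, and 41.3. The mutant mean was 3.82 times the WT mean, with an SD of 0.272 in WT and 1.02 in mutant samples. In the HDAC1cKO experiment the gene measured 12.5, 13.6, and 13.8 FPKM in WT and 14.4, 15.3, and 15.2 in HDAC1cKO samples. There the mutant mean was 1.13 times the WT mean, and the groups did not overlap, which held for 22.3% of all genes tested in that experiment. On the log2(FPKM + 0.1) scale, the fold change was 1.92 with an SE of 0.031 in the first experiment and 0.17 with an SE of 0.080 in the second. The sizes of the log2 fold changes of the other members were at most 0.96 in either experiment.

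The loci behind the *Aldh7a1* values were unlike in the 2 experiments. The annotated gene spans chr18:56509687-56572951 on the minus strand. In the HDAC1cKO experiment the assembled locus covered all of it, whereas in all 8 samples of the first experiment the locus began at 56524722 and so lacked 15035 bases at the 3′ end of the gene. That stretch holds exons of 1 of the 9 annotated transcripts, which make up 472 of the 5181 exon bases (9.11%). WT and mutant samples shared the same locus within each experiment, so the comparison inside an experiment was like with like, but levels set across the experiments were not. *Phax*, which encodes an adaptor for RNA export from the nucleus, overlaps *Aldh7a1* on the plus strand and shares 300 exon bases with it. *Phax* averaged 30.7 ± 1.30 FPKM in WT and 30.9 ± 5.21 in HDAC1cKO-HDAC2HET samples, and 29.8 ± 2.21 against 32.6 ± 1.43 in the second experiment, which the plot of both genes shows.

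**Figure D2:**
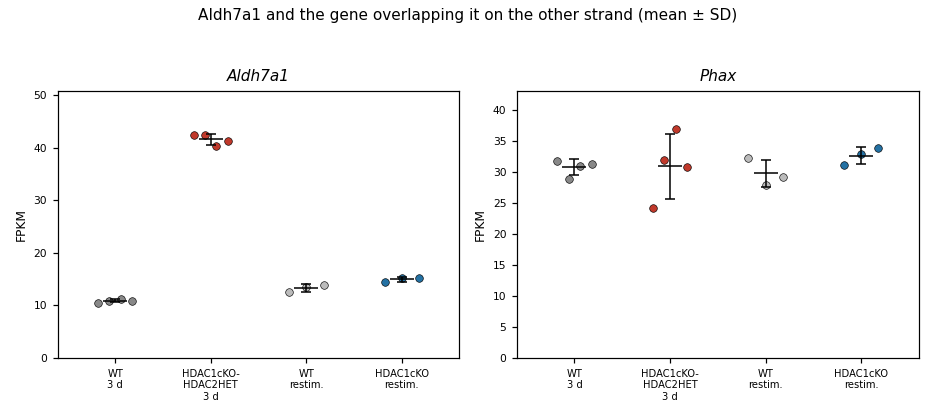
FPKM (y axes, linear, from 0) of *Aldh7a1* (left) and of *Phax*, which overlaps it on the other strand (right), in each sample (points) with mean and SD (bars). The 4 HDAC1cKO-HDAC2HET samples lie between 40.2 and 42.4 for *Aldh7a1* and between 24.2 and 36.8 for *Phax*, where they enclose the WT range.

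Each of the 7 other genes with a value changed in HDAC1cKO-HDAC2HET cells, 3 rising and 4 falling. The call required an adjusted p of at most 0.05 in limma, and 51.8% of the 15137 genes tested passed it (24.2% higher and 27.6% lower in the mutant), so a change at this threshold was common in this comparison. The WT and mutant values did not overlap for any of the 7, against 50.3% of all genes tested. On the log2(FPKM + 0.1) scale none of the 7 reached a fold of 2, which 11.2% of the genes tested did together with the adjusted p, although for *Aldh5a1* the ratio of mean FPKM was 0.433. Their median log2 fold change was -0.43, compared with -0.046 over all genes tested. With 4 samples against 4, an exact 2-sided permutation test gave p = 0.0286 for each of the 7, the smallest value it can give.

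*Aldh18a1* catalyzes the first steps of proline synthesis from glutamate and was the most abundant member. It measured 51.1, 45.8, 52.0, and 46.5 FPKM in WT and 66.8, 60.8, 60.3, and 60.6 in HDAC1cKO-HDAC2HET samples, so that the lowest mutant lay above the highest WT sample. The log2 fold change was 0.35 with an SE of 0.055 (limma, adjusted p = 0.00108), the largest rise among the tested members. When both experiments were fitted together with a common spread, the adjusted p was 0.0560 and the gene was no longer called. In 3 of the 4 WT samples the gene was listed by name, and in the fourth WT and all 4 mutant samples it was an assembled locus with the same ends, so the kind of entry moved with the group. The WT sample with the assembled locus had the lowest value, 45.8 FPKM.

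*Aldh2*, the mitochondrial enzyme that oxidizes acetaldehyde, measured 41.4, 38.5, 41.2, and 39.7 FPKM in WT and 47.9, 51.7, 49.1, and 46.8 in HDAC1cKO-HDAC2HET samples. Every mutant sample exceeded every WT sample, and the log2 fold change was 0.28 with an SE of 0.040 (limma, adjusted p = 0.000625). *Aldh9a1*, which makes the precursor of carnitine from trimethylaminobutyraldehyde, measured 32.7, 35.0, 32.3, and 33.2 FPKM in WT and 37.6, 40.7, 38.0, and 42.5 in mutant samples. The smallest gap between the groups was from 35.0 to 37.6 FPKM, and the log2 fold change was 0.25 with an SE of 0.047 (adjusted p = 0.00267). *Aldh9a1* was listed by name in 1 WT and 3 mutant samples and as an assembled locus with the same ends in the others.

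The largest fall was that of *Aldh5a1*, which oxidizes succinic semialdehyde at the end of GABA breakdown. Its level was low in every sample. It measured 0.654, 0.460, 0.818, and 0.680 FPKM in WT and 0.318, 0.241, 0.259, and 0.312 in HDAC1cKO-HDAC2HET samples. The mutant mean was 0.433 times the WT mean, and the log2 fold change, which the added 0.1 shrinks for low genes, was -0.96 with an SE of 0.18 (limma, adjusted p = 0.00236). With 1 added in place of 0.1 the log2 fold change was -0.36, and with 0.01 added it was -1.16, past a fold of 2. The gene was called with either. *Aldh6a1*, which acts in the breakdown of valine and pyrimidines, measured 1.98, 2.18, 2.18, and 2.07 FPKM in WT and 1.32, 1.39, 1.08, and 1.05 in mutant samples. Its log2 fold change was -0.76 with an SE of 0.11 (adjusted p = 0.00059), or -0.49 with 1 added in place of 0.1. It was listed by name in 1 WT and 3 mutant samples and as an assembled locus in the others. On the other strand, *Bbof1* shares 1078 exon bases with *Aldh6a1*. *Aldh5a1* shares 796 with *4932702P03Rik* and 203 with *9330162012Rik*, also on the other strand. These 3 genes were listed at 0 in every sample of the first experiment, and their part in the values was not tested.

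*Aldh16a1* and *Aldh3a2* fell by similar amounts. *Aldh16a1* encodes a family protein that lacks the catalytic cysteine in mammals. It measured 16.4, 17.7, 15.8, and 16.2 FPKM in WT and 12.4, 11.4, 12.1, and 12.9 in HDAC1cKO-HDAC2HET samples, a log2 fold change of -0.43 with an SE of 0.051 (limma, adjusted p = 0.000247). Its 5′ end overlaps *Pih1d1* on the other strand by 149 exon bases, and *Pih1d1* averaged 49.7 ± 5.75 FPKM in WT and 32.7 ± 2.91 in mutant samples. The part of *Pih1d1* in the *Aldh16a1* values was not tested. *Aldh3a2*, which oxidizes long-chain fatty aldehydes, measured 7.78, 7.42, 8.41, and 8.28 FPKM in WT and 6.36, 6.59, 4.91, and 5.88 in mutant samples. The log2 fold change was -0.43 with an SE of 0.095 (adjusted p = 0.00643), and the lowest value, 4.91, came from the mutant library with the lowest estimated depth.

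The bases before the transcription start are shown for the 2 tested members with the largest rise and the largest fall. RefSeq promoter windows were found for 7 of the 10 members, and each sequence is the 250 bases before the start, 5′ to 3′ in the direction of the gene (GRCm38.p6, minus strand for both). Capitals mark matches on either strand to the CCAAT box, to the GC box GGGCGG, to the TATA box TATAAA, and to the amino acid response motif TGATGNAA. The *Aldh18a1* window lies at chr19:40588464-40588713 and the *Aldh5a1* window at chr13:24937662-24937911.
Aldh18a1: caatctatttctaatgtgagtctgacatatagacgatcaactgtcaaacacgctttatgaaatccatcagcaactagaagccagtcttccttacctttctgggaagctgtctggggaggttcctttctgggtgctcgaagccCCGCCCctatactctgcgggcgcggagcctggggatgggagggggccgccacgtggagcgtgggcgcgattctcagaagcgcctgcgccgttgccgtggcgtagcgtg
Aldh5a1: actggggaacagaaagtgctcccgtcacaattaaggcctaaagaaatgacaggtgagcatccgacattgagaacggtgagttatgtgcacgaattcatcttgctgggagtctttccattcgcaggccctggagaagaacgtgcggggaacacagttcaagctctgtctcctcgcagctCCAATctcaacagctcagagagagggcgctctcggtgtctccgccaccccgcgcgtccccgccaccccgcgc
*Aldh18a1* had a single GC box on the reverse strand and no CCAAT, and *Aldh5a1* had a single CCAAT and no GC box. Of 32851 windows of this length, 33.8% held the CCAAT box, 32.7% the GC box, 12.4% the TATA box, and 3.45% the response motif. Among the other called members, *Aldh16a1* had 4 GC boxes and 1 CCAAT, and *Aldh3a2* had 1 of each. *Aldh9a1* had 1 CCAAT, *Aldh6a1* had 5 over 2 annotated starts, and neither had a GC box. No member window held the TATA box or the response motif. CCAAT occurred in *Aldh9a1*, which rose, and in members that fell, and the part of these motifs in the changes was not tested.

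In the HDAC1cKO experiment no member was called. All 8 members other than *Aldh7a1* with a value were tested, and 0.0927% of the 14028 genes tested passed the threshold (0.0285% higher, 0.0642% lower, and 0.0784% with a fold of at least 2), which is 13 genes, or 57 without WT replicate 3. By comparison, 1995 genes had an unadjusted p under 0.05. The median log2 fold change of the 8 members was -0.23, against -0.029 over all genes tested. The WT and HDAC1cKO values did not overlap for *Aldh9a1* and *Aldh5a1*, 2 of the 8 members, against 22.3% of all genes tested. With 3 samples against 3, an exact 2-sided permutation test cannot go below p = 0.1. The plot of log2 fold changes sets the experiments side by side.

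**Figure D3:**
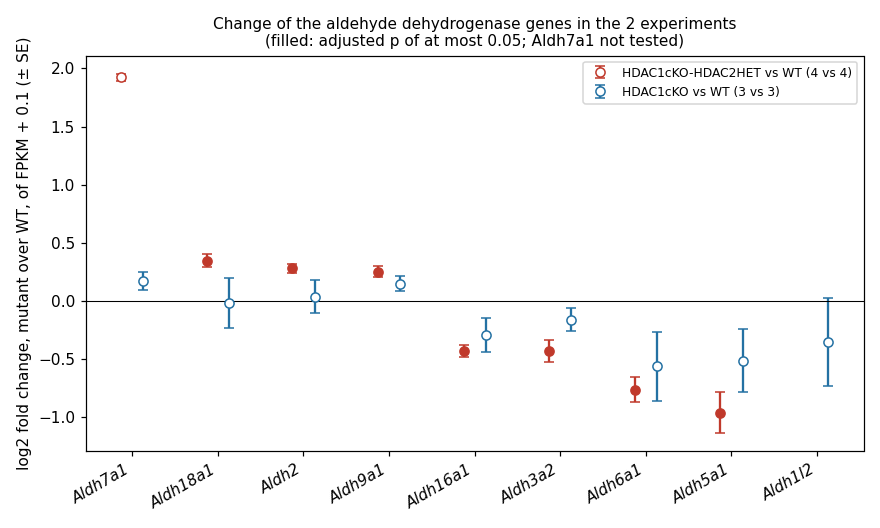
log2 fold change of FPKM + 0.1, mutant over WT (y axis, with SE bars), of each member (x axis) in the HDAC1cKO-HDAC2HET (red) and HDAC1cKO (blue) experiments; filled points have an adjusted p of at most 0.05. *Aldh7a1* lies at 1.92 and 0.17, and the other members lie between -0.96 and 0.35.

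*Aldh9a1* measured 33.8, 34.9, and 34.0 FPKM in WT and 36.2, 39.1, and 38.6 in HDAC1cKO samples, a log2 fold change of 0.15 with an SE of 0.064 (limma, adjusted p = 0.368). *Aldh5a1* measured 0.393, 0.657, and 0.453 FPKM in WT and 0.376, 0.268, and 0.307 in mutant samples, with a log2 fold change of -0.51 and an SE of 0.27 (adjusted p = 0.445). The gap between the *Aldh5a1* groups, from 0.376 to 0.393, was much smaller than the spread within WT. *Aldh3a2* measured 11.3, 12.2, and 11.2 FPKM in WT and 10.3, 11.3, and 9.45 in mutant samples, with a log2 fold change of -0.16 and an SE of 0.099 (adjusted p = 0.501). The groups overlapped, since the second mutant sample lay just above the third WT sample.

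For the remaining members, the value of WT replicate 1 was apart from those of the other 2 WT samples. *Aldh18a1* measured 66.4, 43.6, and 38.4 FPKM in WT and 42.7, 54.0, and 46.5 in HDAC1cKO samples. *Aldh2* measured 27.6, 36.7, and 39.6 in WT against 34.7, 36.4, and 34.4. *Aldh6a1* measured 1.11, 2.21, and 2.02 in WT against 1.34, 1.05, and 1.02. The first WT sample was thus the highest of all 6 for *Aldh18a1*, the lowest of all 6 for *Aldh2*, and among the mutant values for *Aldh6a1*. It was among them for *Aldh16a1* too, with 11.4, 16.3, and 14.9 FPKM in WT against 11.98, 10.9, and 11.5, but the confidence bounds of this gene were wide (6.38 to 16.4 FPKM in WT replicate 1) and overlapped among all 6 samples. *Aldh1l2*, at low levels, measured 0.853, 0.457, and 0.280 in WT against 0.359, 0.329, and 0.389, and its lower confidence bound was 0 in 1 WT and 2 mutant samples. It shares 1056 exon bases at its 3′ end with *D10Wsu102e*, which averaged 20.6 ± 0.921 FPKM in WT and 21.0 ± 0.839 in mutant samples of that experiment.

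Over all genes tested, WT replicate 1 also differed most from the rest of its group, with a median absolute log2 difference of 0.274, compared with 0.148 to 0.194 for the other 5 samples of the experiment. Without it, the log2 fold change of *Aldh6a1* went from -0.56 (SE 0.30) to -0.85 (SE 0.19) and that of *Aldh16a1* from -0.29 (SE 0.15) to -0.44 (SE 0.086). *Aldh18a1* went from -0.017 (SE 0.22) to 0.21 (SE 0.12), *Aldh2* from 0.039 (SE 0.14) to -0.12 (SE 0.068), and *Aldh1l2* from -0.36 (SE 0.38) to -0.0052 (SE 0.29). Other samples moved some values as well. Without WT replicate 2 the log2 fold change of *Aldh5a1* went from -0.51 to -0.33 and that of *Aldh16a1* to -0.18, without WT replicate 3 that of *Aldh1l2* went to -0.67, and without HDAC1cKO replicate 3 that of *Aldh3a2* went from -0.16 to -0.0996. None of the 8 passed the threshold without WT replicate 1, the lowest adjusted p being 0.140 for *Aldh16a1*, or without any other single sample. *Xist*, which is transcribed from the inactive X chromosome of female cells, exceeded 1 FPKM in WT replicates 1 and 3 and in no HDAC1cKO sample. The groups were thus unequal in *Xist*, and whether the sex of the mice accounts for it was not tested. With *Xist* as a term in the fit, *Aldh5a1* had a log2 fold change of -0.87 (SE 0.32) and *Aldh6a1* -0.91 (SE 0.40), and no member was called. In the first experiment *Xist* exceeded 1 FPKM in all 8 samples, but the groups differed. It measured 58.9 to 65.2 FPKM in WT and 26.0 to 33.7 in HDAC1cKO-HDAC2HET samples. Whether sex or the genotype accounts for this difference was not tested.

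**Figure D4:**
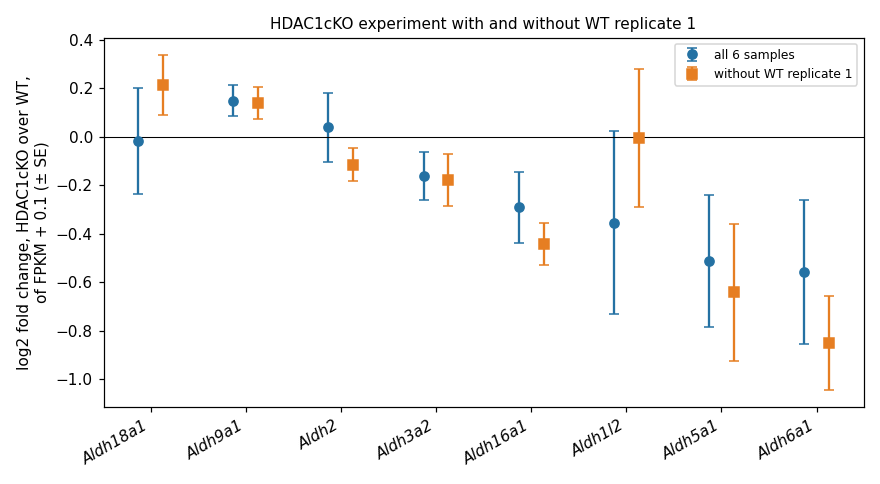
log2 fold change of FPKM + 0.1, HDAC1cKO over WT (y axis, with SE bars), of 8 members (x axis) with all 6 samples (circles) and without WT replicate 1 (squares). *Aldh18a1* crosses 0 from -0.017 to 0.21 and *Aldh2* from 0.039 to -0.12, whereas *Aldh6a1* moves from -0.56 to -0.85.

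The size of the change is set side by side for the 8 members with a value in both experiments, with no test, because the list was chosen on this difference. The log2 fold change in the first experiment exceeded that in the second by 1.75 (SE 0.065) for *Aldh7a1*. The next largest differences were -0.45 (SE 0.29) for *Aldh5a1* and 0.36 (SE 0.21) for *Aldh18a1*. Those of the other 5 members lay between -0.27 for *Aldh3a2* and 0.24 for *Aldh2*. *Aldh5a1*, *Aldh6a1*, *Aldh16a1*, and *Aldh3a2* had negative log2 fold changes in both experiments, and *Aldh9a1* and *Aldh2* positive ones in both, although the sign for *Aldh2* turned without WT replicate 1. No samples were shared between the experiments.

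The order of the members by FPKM, which is scaled to transcript length, was clear in WT cells after 3 days. *Aldh18a1* led with 48.8 ± 3.12 FPKM, followed by *Aldh2* with 40.2 ± 1.38 and *Aldh9a1* with 33.3 ± 1.21. *Aldh16a1* had 16.5 ± 0.835, *Aldh7a1* 10.9 ± 0.272, and *Aldh3a2* 7.97 ± 0.458. *Aldh6a1* had 2.10 ± 0.0997 and *Aldh5a1* 0.653 ± 0.148. No neighbors in this order overlapped in their range over the 4 samples. In HDAC1cKO-HDAC2HET cells *Aldh7a1*, with 41.6 ± 1.02, ranked above *Aldh9a1*, with 39.7 ± 2.29, but their ranges overlapped. In restimulated WT cells *Aldh18a1* (38.4 to 66.4) overlapped *Aldh2* (27.6 to 39.6), *Aldh2* overlapped *Aldh9a1* (33.8 to 34.9), and *Aldh16a1* (11.4 to 16.3) overlapped *Aldh7a1* (12.5 to 13.8).

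Across the 4 groups, the highest mean FPKM was 1.19 times the lowest for *Aldh9a1*, 1.95 times for *Aldh3a2*, and in between for *Aldh18a1*, *Aldh2*, *Aldh16a1*, and *Aldh6a1*. It was 2.31 times the lowest for *Aldh5a1* and 3.82 times for *Aldh7a1*. *Aldh3a2* was highest in restimulated WT cells, at 11.6 ± 0.541 FPKM (n = 3), and lowest in HDAC1cKO-HDAC2HET cells, at 5.93 ± 0.744 (n = 4). Groups of different experiments also differed in restimulation and libraries, which cannot be told apart here. Between the experiments, the loci of *Aldh3a2* ended 279 bases apart and those of *Aldh16a1* began 221 bases apart. The 2 mutant groups could not be ranked for *Aldh6a1* (1.21 ± 0.172 and 1.14 ± 0.177), *Aldh16a1* (12.2 ± 0.632 and 11.5 ± 0.538), *Aldh5a1* (0.283 ± 0.0384 and 0.317 ± 0.0548), or *Aldh9a1* (39.7 ± 2.29 and 38.0 ± 1.54), since the ranges of their samples overlapped.

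The other 11 family genes were mostly near 0. Of these, 4 passed the filter in the first experiment and 5 in the second. *Aldh1a2* and *Aldh1a3*, which make retinoic acid from retinal, both rose in HDAC1cKO-HDAC2HET cells. *Aldh1a2* measured 0.448, 0.200, 0.324, and 0.218 FPKM in WT and 1.28, 1.36, 0.975, and 1.10 in mutant samples, a log2 fold change of 1.72 with an SE of 0.22 (limma, adjusted p = 0.00034). *Aldh1a3* averaged 0.363 ± 0.111 and 0.806 ± 0.133 FPKM (log2 fold change 0.99, SE 0.22, adjusted p = 0.00579). *Aldh1b1*, a mitochondrial relative of *Aldh2*, fell from 2.48, 2.24, 2.64, and 2.58 FPKM in WT to 0.573, 0.849, 0.512, and 0.813 in mutant samples, a log2 fold change of -1.74 with an SE of 0.16 (adjusted p = 6.78e-05). *Aldh1l1*, the cytosolic counterpart of *Aldh1l2*, averaged 0.612 ± 0.123 and 0.748 ± 0.0623 FPKM and was not called (adjusted p = 0.169). All of these values other than those of *Aldh1b1* in WT and *Aldh1a2* in the mutant were below 1 FPKM, and the groups did not overlap for the 3 genes called.

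In the HDAC1cKO experiment none of the 5 other family genes tested was called. *Aldh1b1* measured 3.64, 3.38, and 7.14 FPKM in WT and 2.04, 2.40, and 2.05 in HDAC1cKO samples, with a log2 fold change of -1.01 and an SE of 0.30 (limma, adjusted p = 0.249). The mutant values lay below all WT values, and the WT range was set by the third sample. *Aldh3a1*, an aldehyde dehydrogenase best known from the cornea, measured 0.445, 0.727, and 0.814 in WT against 0.335, 0.368, and 0.319 (adjusted p = 0.314), while it was at most 0.0595 FPKM in every sample of the first experiment. *Aldh1a2* reached 0.140 FPKM at most in WT, and in HDAC1cKO samples it measured 0.151, 0.113, and 0.518.

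Genes that act beside the members in the same routes are given by list, to be read against the 51.8% of all genes called in the first experiment. There, 2 of the 6 proline and glutamate genes reported were called, 1 higher and 1 lower. *Pycrl*, which completes proline synthesis from ornithine, rose from 27.2 ± 0.923 to 37.0 ± 2.84 FPKM (log2 fold change 0.44, SE 0.059, limma adjusted p = 0.000445). *Oat*, which links ornithine to that route, fell from 45.6 ± 0.926 to 38.4 ± 0.310 FPKM. *Pycr1*, at 2.81 ± 0.683 and 3.74 ± 0.555 FPKM, did not pass (adjusted p = 0.0882). *Prodh*, which starts proline breakdown, measured 0.939 ± 0.158 and 1.02 ± 0.255 and did not pass either.

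Of 13 genes of branched-chain amino acid breakdown, which *Aldh6a1* completes for valine, 9 were called, 3 higher and 6 lower, with a median log2 fold change of -0.097. *Bckdha*, a subunit of the complex that commits the branched-chain keto acids to breakdown, fell from 19.3 ± 0.624 to 9.17 ± 0.376 FPKM (log2 fold change -1.07, SE 0.041, limma adjusted p = 1.71e-06). *Bckdhb* and *Dbt*, which encode other parts of that complex, rose from 9.71 ± 0.317 to 11.7 ± 0.561 and from 10.5 ± 0.246 to 14.2 ± 0.478 FPKM. In the valine arm that leads to *Aldh6a1*, *Acad8* and *Hibch* fell (-0.46, SE 0.048, and -0.33, SE 0.039, on the log2 scale), and *Hibadh* measured 33.1 ± 3.50 and 30.9 ± 1.93 FPKM and was not called. *Pccb*, which acts on the propionyl-CoA that follows, fell by 0.69 on the log2 scale (SE 0.050), whereas *Pcca*, its partner subunit, measured 10.2 ± 0.313 and 9.67 ± 0.0811 FPKM and was not called.

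In the aldehyde and alcohol list, 5 of 6 genes tested were called, 2 higher and 3 lower. *Sgpl1*, which releases a fatty aldehyde from sphingosine phosphate, fell from 11.6 ± 0.255 to 6.63 ± 0.212 FPKM (log2 fold change -0.80, SE 0.037, limma adjusted p = 3.34e-06). *Hacl1*, which also yields fatty aldehydes, and *Far1*, which makes fatty alcohols, fell by 0.54 (SE 0.091) and 0.44 (SE 0.036) on the log2 scale, as *Aldh3a2* did. *Adh5*, the formaldehyde-clearing alcohol dehydrogenase, rose from 83.4 ± 3.45 to 104.8 ± 3.57 FPKM. Among the folate genes, 4 of 9 were called, with *Mthfd2* up from 91.2 ± 7.20 to 139.4 ± 6.38 and *Shmt2* from 132.2 ± 5.11 to 193.6 ± 4.30 FPKM. Both act in the mitochondrial folate pathway that holds *Aldh1l2*. *Gldc* also rose, but at levels near the added 0.1, from 0.0677 ± 0.0284 to 0.231 ± 0.0284 FPKM, and *Mthfd1l* fell by 0.18 (SE 0.053).

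The smaller lists had 1 gene tested each in the first experiment. For *Aldh5a1*, *Akr7a5*, which reduces the same semialdehyde, rose from 12.5 ± 0.374 to 16.2 ± 0.879 FPKM, and *Abat*, the GABA transaminase, was under the filter. For *Aldh7a1*, *Aass* and *Aadat* of the lysine route were listed at 0, *Dhtkd1* was under the filter, and *Gcdh* measured 8.40 ± 1.55 and 10.9 ± 2.21 FPKM and was not called (limma, adjusted p = 0.116). For *Aldh9a1*, *Tmlhe*, which catalyzes the first step of carnitine synthesis, fell from 5.19 ± 0.113 to 3.13 ± 0.113 FPKM, opposite in direction to *Aldh9a1*. In the HDAC1cKO experiment none of the genes tested in these lists was called.

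**Figure D5:**
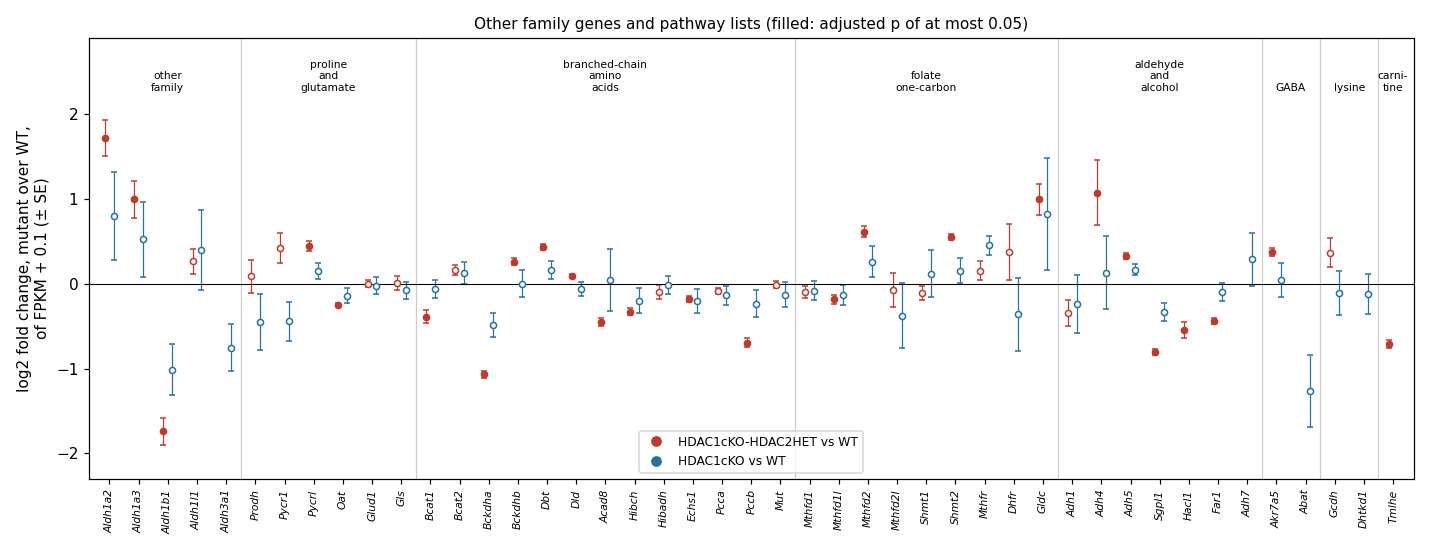
log2 fold change of FPKM + 0.1, mutant over WT (y axis, with SE bars), of the other family genes and of the pathway lists (x axis, lists divided by lines) in the HDAC1cKO-HDAC2HET (red) and HDAC1cKO (blue) experiments; filled points have an adjusted p of at most 0.05. *Aldh1a2* at 1.72 and *Aldh1b1* at -1.74 are the outermost red points, and no blue point is filled.

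The genes whose log2 values were most like those of *Aldh7a1* over the 8 samples of the first experiment were *Idh2*, *Nfic*, and *Stxbp2*, with Pearson correlations of 0.9996, 0.9993, and 0.9993 among 9318 genes. *Idh2*, the mitochondrial isocitrate dehydrogenase, averaged 29.2 FPKM in WT and 56.9 in mutant samples. For *Aldh18a1* they were *Map3k4* (0.997), *Aldoa* (0.994), and *Hk1* (0.993), the last 2 enzymes of glycolysis. For *Aldh5a1* they were *Hs6st1* (0.995), *Dnajb14* (0.989), and *Atp8a2* (0.989). These correlations describe 8 points that share libraries and fall into a WT and a mutant cluster, so they mainly reflect the difference between the groups.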

How the data were processed

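By the study's methods, libraries were made with a stranded mRNA kit. The authors used TopHat to map reads to mm10 and Cufflinks, sample by sample, for FPKM values. The study cites earlier work for the HDAC1cKO comparison and does not say whether these methods cover it. The submitters' notes name other tools, and their part in these tables is not given in the sources used here. The tables carry Cufflinks identifiers and confidence bounds. A gene was read from the entry with its name or, where a sample had none, from the assembled locus sharing at least 0.8 of the joint span with the gene or a transcript in GENCODE vM21 (GRCm38). A gene with such a locus at 0 in any sample was left out of that experiment. Entries marked as failed were left out, and of duplicated identifiers the highest FPKM was kept.

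Genes whose mean FPKM was 0.1 or more entered the test, which was limma 3.58.1 (R 4.3.3) applied to log2(FPKM + 0.1) with an intensity trend in the variance, Benjamini-Hochberg adjustment over all genes tested, and each experiment alone. Fold changes of low genes are understated on this scale. A gene was called at an adjusted p of at most 0.05. Single genes also had an exact 2-sided permutation test. Fragment numbers were estimated from the Cufflinks bounds of single-transcript genes at low FPKM, where 85.0% to 90.6% of genes gave a whole number within 0.05, with annotated transcript lengths. No counts were used, and no interval on a gene rests on these estimates. Replicates of the first experiment were independent batches of cells prepared on a single day per a figure legend of the study. What separates those of the second is not stated. *Xist* measured 42.9, 0.0188, and 33.2 FPKM in WT replicates 1, 2, and 3 of the second, so replicate 2 did not repeat the cells of replicates 1 and 3. *Xist* cannot tell WT replicates 1 and 3 apart in this way, nor the HDAC1cKO samples, which were all below 1 FPKM. The p-values measure the spread between these samples, part of which may be technical. Samples with the same replicate number showed little shared deviation, with correlations between -0.016 and 0.062, and the main fit used no pairing. Whether samples with the same number were prepared together is not stated.

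The members, the lists, and the rule for named genes were chosen with earlier results of these data known. The genes named were the members, the other family genes, the genes of the lists, and the 3 genes most like *Aldh7a1* and the members with the largest rise and fall. Other settings were tried for the matching of loci, the low-value filter, the pseudocount, the scaling between samples, the trend, and the weighting of samples. *Xist* as a term, a replicate block, a joint fit of both experiments, and the removal of each sample in turn were tried as well. The fit was tested on simulated data. Figures were drawn with matplotlib 3.10.9. Authors' tables of fold changes were not used. Of the proline and glutamate list, 1 gene is not reported here.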

Additional observations from a re-analysis of the deposited data

Results flagged for a closer look

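Among 28 groups of 4 samples (WT and HDAC1cKO-HDAC2HET values of the tested family genes, *Hdac1*, and *Hdac2*), 2 held a sample far from the others by Dixon's criterion, and chance gives about 1 in 20. *Aldh18a1* measured 66.8 FPKM in HDAC1cKO-HDAC2HET replicate 1, where the other 3 mutant samples lay between 60.3 and 60.8. *Aldh1l1* measured 0.840 FPKM in HDAC1cKO-HDAC2HET replicate 3, where the other 3 lay between 0.708 and 0.727.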

How the results depend on the processing

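In the HDAC1cKO-HDAC2HET experiment the 7 called members stayed at 7 when any 1 sample was left out, and the count of genes called stayed between 7133 and 7665. With rows listed by name alone, 1024 of the 4303 genes tested were called, a smaller share, and the cause was not tested. Only 1 member could be tested there, and it was called. In the HDAC1cKO experiment no member was called under any alternative run. The count of genes called there moved from 13 to 27 with a mean FPKM of at least 1, 31 with sample weights, 76 with *Xist* as a term, 1377 with both experiments fitted together, 8 without the intensity trend, and 7 with rows listed by name. It lay between 11 and 57 when 1 sample was left out, the highest without WT replicate 3. With the replicate number as a block it was 5, while 7106 genes and 7 members were called in the first experiment. In that experiment the block lost the call of *Dld* (adjusted p = 0.0799) and gained that of *Pycr1* (adjusted p = 0.0473). It changed no other call among the listed genes, and samples with the same number showed little shared deviation.

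*Aldh2* turned in sign in the HDAC1cKO experiment with sample weights (-0.066), with *Xist* as a term (-0.062), and without WT replicate 1 (-0.12). *Aldh18a1* turned with the same 3 (0.12, 0.12, and 0.21) and without HDAC1cKO replicate 1 (0.059). Left-out samples put *Aldh2* between -0.12 and 0.14 and *Aldh18a1* between -0.18 and 0.21 in the HDAC1cKO experiment. *Aldh18a1* was not called in the first experiment when both were fitted together (adjusted p = 0.0560). The *Xist* term could not be fitted in the first experiment, where all 8 samples exceeded 1 FPKM. The low values of *Aldh1l2* had confidence bounds that reached 0 in 3 of 6 samples.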
